A study of Caenorhabditis elegans with 2 samples.

Results

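Small RNA deserts are the stretches of the Caenorhabditis elegans genome in which neither of 2 small RNA libraries showed signal for at least 5 kb. They were chosen by the coverage values of both libraries, as runs of 5 or more adjacent 1 kb bins of one chromosome with a deposited value of 0.1, the lowest value of the table, in both libraries, so their lack of signal is given as a description. There were 197 such runs, and they held 1164 of 100257 bins, or 1.16% (95% exact Clopper-Pearson interval 1.10% to 1.23%, counting error only). Both libraries came from young adult hermaphrodites. The coIP library held RNA that came down from worm lysate with FLAG-StrepII-tagged HRDE-1 on anti-FLAG resin, and the N2 library held small RNA of the wild-type strain N2. The protocol text is the same for both, so whether the N2 RNA is total small RNA or a mock pull-down is not stated. Each group is 1 library of pooled animals without a replicate, so no difference below has a replicate check, and no test was run.

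HRDE-1 is a germline Argonaute of the nucleus, a protein that carries small interfering RNAs to matching nascent transcripts and so silences transposons and many genes over generations. Its guides are secondary small RNAs that RNA-dependent RNA polymerases copy from transcripts, and the cloning procedure used here admits them because it needs no 5′ monophosphate. In this worm, the arms of the autosomes are rich in repeats and recombine often, while the centres hold most conserved genes. The X chromosome is poor in genes expressed in the germline. A desert is therefore a place where neither the HRDE-1 library nor the N2 library showed small RNA above the floor.

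The value 0.1 is an offset that the table gives to each bin, and 1 read added 0.169 to it in the coIP and 0.232 in N2. Values are rounded to a step of 0.01, so a bin printed at the floor can hide up to 0.0296 read in the coIP and 0.0215 read in N2. Shares of a read can arise, for instance, when a read with several sites is divided among them. How such reads were treated is not stated, and the source of the shares was not tested. In the coIP 20.97% of all bins stood at the floor, and in N2 42.9% did. Both were at the floor in 16413 bins, which is 78.1% of the coIP floor bins and 38.1% of the N2 floor bins. The coIP bins held 4831940 reads in all and the N2 bins 2161930, counted as read equivalents above the floor.

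A floor value sets only an upper limit on the reads of a stretch. A count of 0 allows up to 3 reads, which is 0.6 read per kb over a desert of 5 kb. The median bin outside deserts held 1.54 reads in the coIP and 0.172 read in N2. In N2 a level as low as that of the median bin was not detectable over a single stretch of this size. The limit of 3 reads holds for a stretch not chosen for its lack of reads, and the deserts were chosen for it, so no level is read from it for a desert.

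Most silent stretches were too short to be deserts. Bins at the floor in both libraries formed 10863 runs, of which 7415 were single bins, 2189 had 2 bins and 792 had 3. Just under the threshold were 270 runs of 4 bins, and just inside it 100 runs of 5 bins. The deserts took 7.09% of the bins at the floor in both libraries. Their median length was 5 kb, 149 of 197 were 5 or 6 kb long, and 22 reached 8 kb. A run of 1 bin went on to a second bin in 31.7% of cases, a run of at least 2 bins went further in 36.5%, one of at least 4 bins in 42.2% and one of at least 5 bins in 49.2% (97 of 197). The longer a run already was, up to 6 bins, the more often it continued, and beyond that few runs were left.

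**Figure D1:**
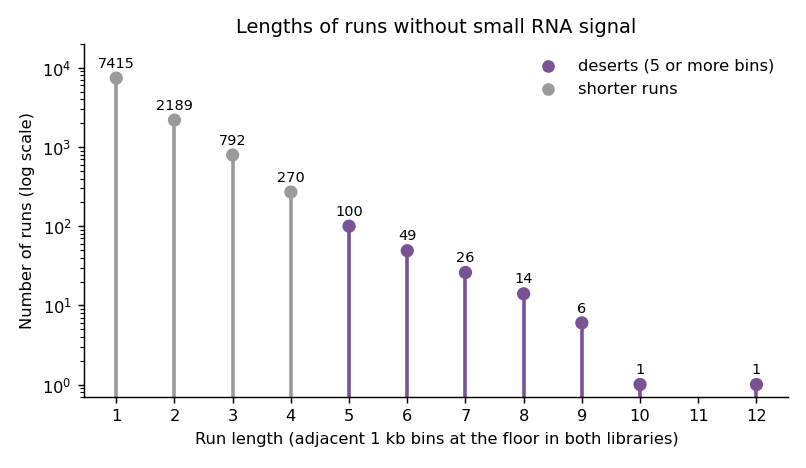
Number of runs (vertical axis, log scale) by run length in 1 kb bins (horizontal axis) for bins at the floor in both libraries. Purple points are the deserts, from 100 runs of 5 bins to 1 run of 12 bins, and grey points are shorter runs, from 7415 single bins to 270 runs of 4 bins.

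The longest deserts lay on X and V, but they ended in little signal. The longest, X 10250001 to 10262000 in the positions of the file, had 12 bins. Its left neighbour held 0.27 in the coIP, the value of 1 read, and 0.1 in N2, and its right neighbour 0.11 and 0.1. On V, the desert at 9615001 to 9625000 was 10 kb long, and both its neighbours held 0.11 in the coIP and 0.1 in N2. No neighbour of these 2 deserts held as much as 2 reads.

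Of the 6 deserts of 9 kb, 3 were on V, at 7013001 to 7022000, 7901001 to 7910000 and 15336001 to 15345000. The others were II 3159001 to 3168000, IV 689001 to 698000 and X 733001 to 742000. The one on IV had the strongest neighbour of these 6, with 1.46 in the coIP (8.05 reads) and 0.1 in N2 on its left side. Chromosomes I and III had no desert of 9 kb. On I the longest were 4 deserts of 6 kb, and on III 3 deserts of 8 kb, at 6258001 to 6266000, 7042001 to 7050000 and 7250001 to 7258000.

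By chromosome, V and X stood out. They held 124 of the 197 deserts, or 62.9%, on 38.5% of the bins. V had 67 deserts and 402 desert bins, or 1.92% of its bins (interval 1.74% to 2.12%), and X had 57 deserts and 334 bins, or 1.88% (1.69% to 2.10%). The shares of V and X did not differ beyond counting error. On II there were 27 deserts with 1.06% of the bins, on III 20 with 0.849%, on IV 16 with 0.543% and on I 10 with 0.359%. Bins within a run are not independent, so these intervals are too narrow.

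This order was close to that of the bins at the floor. Both libraries were at the floor in 23.2% of X bins and 21.1% of V bins, against 15.9% on II, 13.3% on IV, 11.5% on III and 10.3% on I. Chromosomes V and X, which were close in desert share, changed places between the orders, and so did IV and III. IV had more floor bins than III but fewer of them in deserts, 4.09% against 7.38% on III. The share of floor bins that lay in deserts was 9.11% on V, 8.14% on X, 6.66% on II and 3.47% on I.

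Deserts were fewer in the chromosome arms than in the centres. Arms, the outer 30% of bins at each end, held 70 deserts in 60154 bins, or 0.690% of their bins (0.625% to 0.759%). Centres, the inner 40%, held 127 deserts in 40103 bins, or 1.87% (1.74% to 2.00%). The arm share was 0.369 of the centre share. The share of bins at the floor in both libraries differed less, 13.5% in arms and 20.7% in centres, so 5.11% of the floor bins of arms and 9.04% of those of centres were in deserts. The coIP held a mean of 57.4 reads per bin in arms and 34.4 in centres, and a median of 2.01 in arms and 1.01 in centres. In N2 the mean was 19.2 in arms and 25.1 in centres, while the median was 0.172 in arms and 0.0861 in centres. The N2 means include single bins of up to 117955 reads in arms and 217385 in centres. At the floor in N2 were 40.9% of arm bins and 46.0% of centre bins. The part of these levels in the arm and centre shares was not tested.

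The order held on each of the 6 chromosomes, but its size varied. On I the arms held 1 desert, 0.0664% of their bins, and the centre 9, or 0.797%. On III the arms had 0.314% and the centre 1.65%, on II 0.436% and 2.00%, and on V 1.12% and 3.13%. X was more even, with 1.42% in arms and 2.58% in the centre. On IV the shares lay within each other's counting interval, 0.495% in arms (0.370% to 0.649%) and 0.614% in the centre (0.445% to 0.827%). The IV centre had more bins at the floor than the III centre, 17.7% against 15.2%, and yet 8 deserts against 15.

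On several chromosomes the opposite arms held different numbers of deserts. The left arm of X held 19 deserts and 2.09% of its bins, while the right arm held 7 and 0.752%. On II the left arm had 5 deserts and the right arm 1, and on III 4 and 1, so both differences rest on few runs. On V the order was the other way, with 10 in the left and 14 in the right arm. The intervals of their shares overlapped there, 0.689% to 1.18% on the left and 1.05% to 1.64% on the right. On IV each arm had 4 deserts, with 0.457% of the left arm's bins (0.293% to 0.680%) and 0.534% of the right arm's (0.355% to 0.770%). The left arm of I held no desert in 4518 bins. The exact interval of this share ends at 0.0816%, but it counts bins as independent. Deserts come as runs of bins, so a larger share is allowed. No desert lay in the outer 100 kb of any chromosome end (0 of 1200 bins), and 12.1% of those bins were at the floor in both libraries. The exact interval there, up to 0.307%, is too narrow as well. These ends span 1.2 Mb, and arms held 1.16 deserts per Mb, so few deserts would lie there at that rate.

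**Figure D2:**
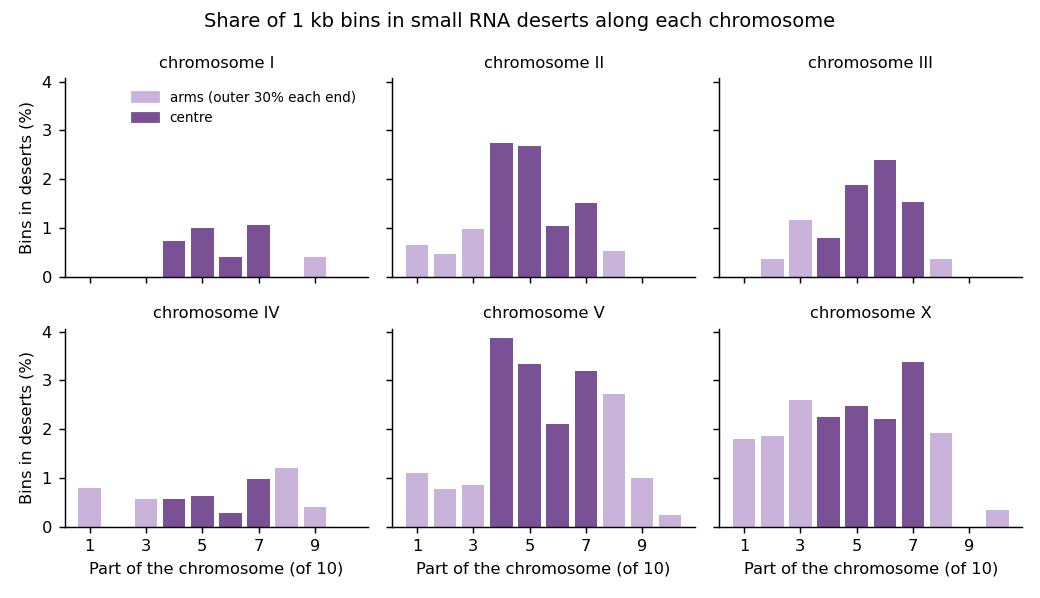
Share of 1 kb bins in deserts (vertical axis, percent) in each of 10 equal parts of a chromosome (horizontal axis, numbered from the left end), 1 panel per chromosome. Light bars are arms and dark bars the centre. The highest bar is part 4 of V at 3.87%, and on I, II, III and IV part 10 is at 0.

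Along the chromosomes the share was lowest toward the right ends. With each chromosome cut into 10 equal parts, part 1 held 0.788% of its bins in deserts and part 10 held 0.11%, against 1.94% in part 4, 2.07% in part 5 and 2.03% in part 7. X kept a high share from part 1 (1.81%) to part 8 (1.92%) and had 0 in part 9. V reached 3.87% in part 4 and still had 2.72% in part 8, inside the right arm.

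At the scale of 1 Mb, 24 of 97 full tiles held no desert bin, so the 3 poorest could not be singled out. Of these, 9 were among the 15 tiles of I, 1 among the 17 of X and 2 among the 20 of V. The 3 richest tiles were X 12 to 13 Mb with 10 deserts (57 bins), V 7 to 8 Mb with 8 (54 bins) and V 9 to 10 Mb with 8 (46 bins). Together they held 13.5% of all desert bins. The tile III 7 to 8 Mb had 5 deserts (33 bins) although only 15.5% of its bins were at the floor, against 29.9% to 30.6% in the 3 richest. Of the windows of IV that hold most piRNA genes, the one at 5 to 7 Mb had 2 deserts, or 1.00 per Mb, against 13, or 1.04 per Mb, over the rest of IV. Its share of bins in deserts was 0.500% (0.240% to 0.918%), and this interval holds the 0.624% of the rest of IV. The window at 14 to 17 Mb had 1 desert and 0.233% of its bins (0.0939% to 0.480%). Both intervals count bins as independent and are too narrow. The share of the window at 14 to 17 Mb rests on 1 run of 7 bins, so no lower share is read from it.

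Neighbouring deserts were mostly far apart. The median gap between deserts of one chromosome was 209 kb, with the longest, 3144 kb, on IV. On X the median gap was 156.5 kb and on V 172 kb, against 648 kb on I and 644 kb on IV. Gaps shorten as deserts get denser, and there were 3.22 deserts per Mb on X, 3.20 on V, 0.664 on I and 0.915 on IV. Whether deserts cluster beyond this density was not tested. Gaps of up to 50 kb made up 28.8% of those on V and 28.6% of those on X, and none of the 15 on IV.

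Only 4 gaps were islands of 1 to 3 bins, and they were weak. The bin at X 13179001 to 13180000 parted 2 deserts of 6 kb with 0.178 read in the coIP and 0 in N2. The island at V 9011001 to 9013000 held 0.473 read in the coIP and 0.0431 in N2. At V 15378001 to 15381000 the sums were 1.18 reads in the coIP and 0 in N2, with no bin above 0.533 read. At V 18648001 to 18651000 they were 2.60 reads in the coIP and 0.904 in N2. A single island thus reached 1 read in any of its bins, the last one, and the other 3 separated deserts by shares of a read.

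What lay directly beside the deserts was faint as well. The 197 deserts had 393 distinct edge bins, since 1 bin served 2 deserts. At the median edge bin the coIP held 0.13, or 0.178 read (interval of the median 0.118 to 0.296), and N2 stood at the floor. The other 83451 bins above the floor had medians of 0.61 in the coIP, or 3.02 reads, and 0.33 in N2, or 0.990 read. By the rule an edge bin has a value above the floor in at least 1 library, so it was set beside other bins with such a value.

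Which library ended a desert was lopsided. The coIP alone was above the floor in 244 edge bins (62.1%), both libraries in 105 (26.7%) and N2 alone in 44 (11.2%). In the other bins above the floor these shares were 31.6%, 62.9% and 5.47%. At the edges of shorter runs they were 52.6%, 37.8% and 9.60%, so most of this skew was not particular to deserts. The coIP library also had more reads and fewer bins at the floor, and the part of depth in these shares was not tested.

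Shares of a read, not whole reads, closed many deserts. In 192 edge bins (48.9%) both libraries held under 0.5 read, and in 175 (44.5%) at least 1 library held 1 read or more. In the other bins above the floor the order was reversed, with 18.2% under 0.5 read and 78.8% at 1 read or more. The edges of the 10666 shorter runs lay between, with 39.8% and 55.5%. The smallest step above the floor, 0.11, was the coIP value of 101 edge bins (25.7%), against 9.66% of the other bins. It corresponds to 0.0592 read.

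Both sides of a desert seldom held a whole read. In 40 deserts (20.3%) both neighbours reached 1 read in a library, in 95 one did, and in 62 (31.5%) neither. In the coIP, the nearest bin with 1 read was directly at the edge for 111 deserts (56.3%), and in N2 for 72 (36.5%). The furthest desert from such a bin lay 15 kb away in the coIP and 22 kb in N2. Bins of 10 reads were at a median of 7 kb in the coIP and 10 kb in N2, against 5 kb and 9 kb for shorter runs.

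**Figure D3:**
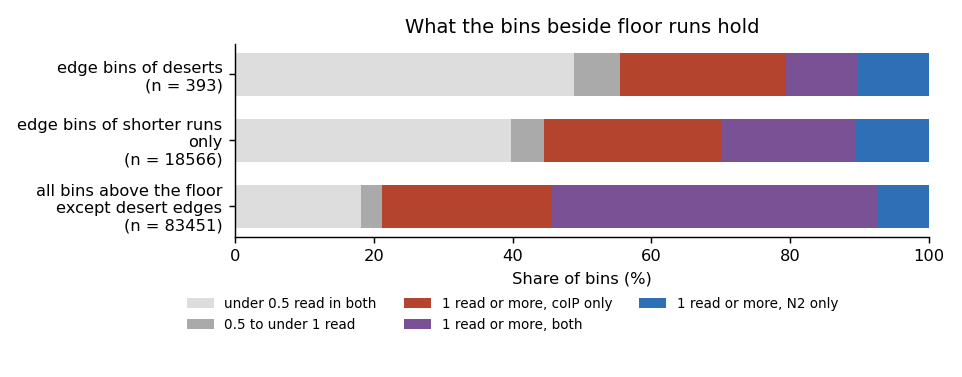
Share of bins (horizontal axis, percent) by their content in read equivalents, for the 393 edge bins of deserts, the 18566 edge bins of shorter runs only and the 83451 bins above the floor other than desert edges. Grey segments hold under 1 read in both libraries and make up over 50% of the desert edges, and coloured segments hold 1 read or more in the coIP only (red), both (purple) or N2 only (blue).

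On V the edges were faintest. There 58.2% of 134 edge bins held under 0.5 read in both libraries, against 35.0% of 20 on I, 37.5% of 32 on IV, 42.5% of 40 on III, 46.0% of 113 on X and 48.1% of 54 on II. The median coIP edge value was 0.118 read on V and 0.858 on I. The other bins above the floor ran in a different order, with medians of 2.01 coIP reads on V and 1.18 on X. The median edge bin held 0.237 coIP read in arms and 0.178 in centres, with overlapping intervals, and 0 N2 read in both. The coIP reached 10 reads in 4 of 139 edge bins in arms (2.88%) and in 17 of 254 in centres (6.69%). These counts are small and have no interval. In the other bins above the floor the shares were 30.7% in arms and 32.9% in centres. The mean N2 edge was 0.793 read in arms and 2.99 in centres, and the centre value includes the bin of 337 reads on II.

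Few edges were strong. The coIP reached 10 reads in 21 edge bins (5.34%) and N2 in 14 (3.56%), against 31.5% and 13.5% of the other bins above the floor. The strongest neighbour was II 7200001 to 7201000, left of the 5 kb desert at 7201001 to 7206000, with 12.77 in the coIP (74.98 reads) and 78.37 in N2 (337 reads). On its other side the same desert had 0.11 in the coIP and 0.33 in N2.

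Strong edges of the coIP and of N2 were mostly different places. The desert V 7595001 to 7602000 had the largest summed coIP edge, 80.1 reads from 11.09 on its left and 2.64 on its right, with 0.56 in N2 on either side. At X 12034001 to 12039000 the left neighbour held 8.9 in the coIP and 0.1 in N2, so the coIP had 52.1 reads beside a bin empty in N2. At V 526001 to 532000 the right neighbour held 6.69 in the coIP and 0.1 in N2. The left neighbour of II 5481001 to 5486000 held 6.01 in the coIP and 1.96 in N2.

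The list by N2 was picked by N2 signal in the same way. At I 6670001 to 6675000 the left neighbour held 0.44 in the coIP and 22.16 in N2 (94.98 reads). At V 12684001 to 12690000 the left neighbour held 0.86 in the coIP and 15.11 in N2, but the right one 3.03 and 0.56. The right neighbour of I 10152001 to 10158000 was at the floor of 0.1 in the coIP and at 13.8 in N2. At II 10957001 to 10965000 the left neighbour held 0.12 in the coIP and 10.55 in N2, or 45.0 reads. In each of the 4 N2-rich neighbours named here N2 had nearly all of the signal. The desert at II 7201001 was the one member of both lists of 5.

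Edge bins that could be measured were more often at least 4-fold lower in the coIP than at least 4-fold higher. With each library scaled to its total, 114 of the 393 edge bins reached the minimum signal. Among them, 11 (9.65%) had a coIP level at least 4-fold above N2, against a background of 19.4% of all measured bins, and 21 (18.4%) a level at least 4-fold below it, against 9.04%. For edges of shorter runs the shares were 11.5% and 13.0%. The rule is uneven at low signal: beside a floor value in the other library it takes 6 coIP reads but 2 N2 reads to pass, and edge bins are low. When the median ratio was set to 1 instead, the edge counts were 7 higher and 51 lower, so higher calls made up 34.4% of edge calls under library totals and 12.1% under that scaling. Over all measured bins that share was 68.2% under library totals and 34.3% under that scaling, with 5862 bins higher and 11204 lower. In the authors' deposited table, 5 edge bins (1.27%) had a p-value of at most 0.05 with a higher coIP, against 12.6% of all bins, and 15 (3.82%) with a lower one, against 4.82%.

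Low signal reached well past the edges. From 2 to 5 kb away, 30.2% of bins were at the floor in both libraries, the coIP median was 0.118 read and the N2 median 0. At 6 to 10 kb 25.3% were at the floor, at 11 to 20 kb 20.9% and at 21 to 50 kb 19.7%, against 14.3% over 50 kb away. Bins with 1 read or more made up 36.9% in the coIP and 26.3% in N2 at 2 to 5 kb, and 62.4% in the coIP and 47.4% in N2 over 50 kb away. Bins of 10 reads or more made up 10.9% in the coIP and 6.18% in N2 at 2 to 5 kb, against 27.7% in the coIP and 11.7% in N2 over 50 kb away. The deserts lay mostly on V and X, and within a chromosome the pattern was the same. At 2 to 10 kb the share at the floor was 29.0% on V and 29.4% on X, against 18.4% and 20.9% over 50 kb away. On III it was 29.8% near deserts and 9.79% away from them.

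**Figure D4:**
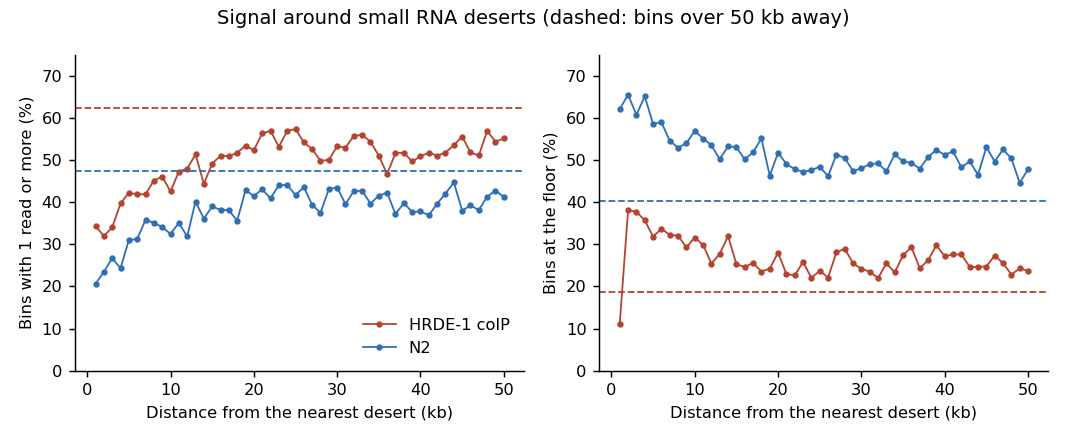
Share of bins with 1 read or more (left) and at the floor (right), in percent, by distance from the nearest desert in kb, for the coIP (red) and N2 (blue), with dashed lines at the level of bins over 50 kb away. The first bin is set by the rule, which requires signal in at least 1 library there, and from 2 kb on the coIP share at the floor goes from 38.1% to 23.7% at 50 kb.

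Because many edges held shares of a read, each desert was also followed out to the first bin with 1 read in either library. The stretch with under 1 read per bin around a desert had a median length of 9 kb, an upper quartile of 14 kb and a maximum of 25 kb. It was no longer than the desert itself in 40 cases and at least 10 kb in 94. Read by this measure the longest were X 12174001 to 12199000 with 25 kb, around a desert of 7 kb, and V 12421001 to 12445000 with 24 kb, around a desert of 5 kb. At V 15363001 to 15386000 a stretch of 23 kb held 2 deserts of 5 kb. The 12 kb desert of X grew to 14 kb and the 10 kb desert of V to 18 kb. By chromosome the median stretch was 11 kb on II, 10 kb on V, 9 kb on X, 8 kb on III and IV and 7 kb on I.

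**Figure D5:**
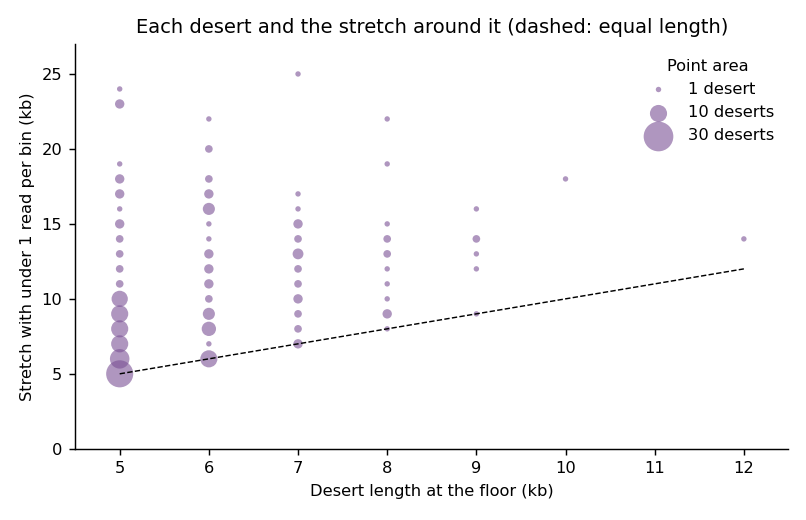
Length of the stretch with under 1 read per bin in both libraries (vertical axis, kb) against the length of the desert inside it at the floor (horizontal axis, kb), with point area by number of deserts. Points on the dashed line, 40 deserts, are not lengthened, and the highest point is a 7 kb desert in a stretch of 25 kb.

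Stretches without a whole read were far more common than deserts. There were 1985 of at least 5 kb, with 15.6% of all bins, and 194 of them held a desert. Of 440 stretches of at least 10 kb, 91 held one, and of 32 of at least 20 kb, 8 did. The 6 longest, picked after their values were seen, held none. The first, II 3831001 to 3868000, was 37 kb long. Its bins summed to 2.19 reads in the coIP and 0.474 in N2, and 16 of its bins were at the floor in both libraries, in runs of at most 2.

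Another stretch of this kind had no bin at the floor in both libraries. At III 7413001 to 7444000, 31 bins in a row were above the floor in the coIP and 30 of them in N2. No bin exceeded 0.947 read in the coIP or 0.258 in N2, and the sums were 15.7 and 2.32 reads. Deserts lay in the same tile of III, the nearest before it at 7250001 to 7258000 among those named. The remaining ones were X 10483001 to 10519000, I 12355001 to 12390000, IV 3983001 to 4014000 and V 7648001 to 7679000, with 14 to 17 floor bins each in runs of at most 3 or 4.

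The libraries taken singly gave different pictures. Runs of 5 or more bins at the floor in the coIP numbered 378 with 2.23% of bins, and 10.9% of those bins had 1 read or more in N2. For N2 there were 2545 such runs with 19.3% of bins, and 21.3% of those bins had 1 read or more in the coIP. The longest N2 run, V 15262001 to 15294000, was 32 kb long and held 25.3 reads in the coIP. The longest coIP run was the 12 kb desert of X.

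No bin that the authors marked lay in a desert. In the table GRTS and GRH mark bins, which in published work on HRDE-1 stand for loci silenced in transcription, and loci with heterochromatin, through germline nuclear RNAi. None of 191 GRTS and none of 215 GRH bins lay in a desert, or in any of the 16413 bins at the floor in both libraries. Deserts held only 1.16% of all bins, so at that share few of these marked bins would lie in one. Bins at the floor in both libraries made up 16.4% of all bins. Within 10 kb of a desert there were 0 GRTS bins and 6 GRH bins (2.79% of the GRH bins), and 3.74% of all bins outside deserts lay that close. Within 50 kb there were 8 GRTS bins (4.19%) and 23 GRH bins (10.7%), against 16.1% of all bins outside deserts. One GRH bin was itself an edge bin. The sources do not say how bins came to be marked, so small RNA signal may itself have been a criterion.

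Bins printed alike did not all have the same deposited p-value. The method of that p-value is not stated, and what lies behind the split was not tested. In the authors' deposited table, 873 desert bins (75%) had a p-value of 0.97 and 291 (25%) of 0.98, although each of them read 0.1 in both libraries. In the authors' deposited table both values occurred within 157 deserts, 40 deserts had 0.97 throughout, and no desert had 0.98 throughout. Bins with 0.11 in the coIP and 0.1 in N2 had 0.98 in 94.2% of cases in the authors' deposited table. Floor bins outside deserts were split in nearly the same way, 74.5% at 0.97 and 25.5% at 0.98, in the authors' deposited table.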

How the data were processed

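The study deposited 1 table with a value per 1 kb bin for the coIP library and the N2 library, 1 each. Reads were aligned with Bowtie 0.12.7, per the submitters' processing notes. The build, the normalisation and the handling of reads with several sites: not given in the sources used here. The values are a coverage signal that the authors deposited with an offset of 0.1, rounded to a step of 0.01. The authors' deposited p-value per bin is rounded, and its method is not stated. Bins of V end at 20920000, before the last WBcel235 gene end at 20922732, so the build could not be matched. Positions are those of the file, counted from 1, and no gene or sequence is given. Bins of I end at 15060000, also before the last WBcel235 gene end there, at 15072426, so the rest of I could not be analysed.

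From the table, the value of 1 read was found as the spacing that made the largest number of values of up to 300 reads whole within 0.0055. At that spacing 29.7% of all coIP values above the floor and 53.9% of those of N2 were whole. Read equivalents are the value less the floor, divided by that spacing. They include shares of reads, so no count test was run. Intervals of shares are exact Clopper-Pearson at 95%, those of medians rest on binomial ranks, and both cover counting error only. For the 4-fold rule, libraries were set to parts of 1000000 (ppm) of their sums, with a minimum of 0.351 ppm on the mean of both and a pseudocount of 0.121 ppm. Python 3.11.15, numpy 2.4.6, pandas 2.3.3 and scipy 1.17.1 were used, and the run search and the 4-fold rule were tested on simulated data. Named by rule were the 10 longest deserts (8 of at least 9 kb, since 14 of 8 kb tie for the other places), the longest of each chromosome, islands of 1 to 3 bins, the 5 strongest edges per library and the extreme tiles. The members and rules were chosen with earlier results of these data known. Alternatives changed the run length, the floor, the library, the arms, the edge width, the pseudocount, the scaling, the fold and the minimum.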

Additional observations from a re-analysis of the deposited data

How the results depend on the processing

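The definition sets how many deserts there are, while centres exceeded arms under each of the 11 alternatives computed for their shares. The settings of at most 0.11 and of under 0.5 read were chosen after seeing the data. With runs of 3 bins there were 1259 deserts with 4620 bins, and 3.25% of arm and 6.64% of centre bins. Runs of 10 bins left 2 deserts with 22 bins, 0% of arms and 0.0549% of centres, and a coIP edge median of 0.0592 read. Values of at most 0.11 gave 826 deserts with 5243 bins, 3.36% and 8.03%, and a coIP edge median of 0.473 read. Bins under 0.5 read gave 1717 with 12969 bins, 9.73% and 17.7%, and edge medians of 1.07 coIP and 0.344 N2 reads. Bins of at most 1 read gave 2674 with 23589 bins, 19.0% and 30.3%, and edge medians of 2.13 and 0.990. Bridged gaps gave 1050 with 7365 bins, 5.30% and 10.4%. The coIP alone gave 378 with 2234 bins, 1.34% and 3.56%, and N2 alone 2545 with 19367 bins, 16.2% and 24.0%, and edge medians of 1.07 coIP and 0.990 N2 reads. Arms as the outer 20% had 0.461% against 1.63% in centres, as the outer 40% 1.01%, and without X 0.533% against 1.71%. Edge bins at least 4-fold higher and lower (11 and 21) were 82 and 116 with 3 bins, 0 and 0 with 10 bins, 55 and 85 at 0.11, 200 and 321 under 0.5 read, 548 and 760 at 1 read, 81 and 110 bridged, 27 and 40 for the coIP alone, 428 and 479 for N2 alone, 3 and 9 after a 10 times larger pseudocount, 7 and 51 after centring on the median ratio, and 37 and 51 at 2-fold. No paired analysis was possible because the coIP and N2 have 1 library apiece. Depth limits what a floor value means, above all in N2.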
